A study of Mus musculus with 6 samples.

Results

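Marco, the gene of a scavenger receptor of macrophages, and 8 genes of neutrophil granules and secretions were followed in the retina of mice given titanium dioxide nanoparticles. The members are 9 of the 31829 gene names on the array: Marco, S100a8, S100a9, Ngp, Camp, Ltf, Mmp8, Mmp9 and Retnlg. They were matched by name to 10 probes, of which Camp has 2 and each other gene 1. The set was chosen on the measured ratios of these arrays, with attention to replicate 1 of the lower dose and to probes near background. The ratios are therefore given as a description, and no test of a member is used as support.

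The treated animals were male C57BL/6 mice, 8 weeks old, whose right eye received the nanoparticles by injection into the vitreous, the clear gel behind the lens. The labels call the lower dose PTC and a dose 10 times as high 10PTC, and PBS, the saline vehicle, served as control. Retinas were taken after 7 days from 12 mice per group, and 4 retinas were pooled per tube, so that 3 pools stand for each dose and none for a single animal. Each of the 6 Agilent 2-colour arrays carried RNA of 1 treated pool labelled with Cy5 beside PBS RNA labelled with Cy3, and dyes were not swapped. Expression is given as log2 of Cy5 over Cy3, where 1 is a doubling and 0 is no difference from PBS. The ratios are set against 1 control RNA per array, so the spread of the control is not measured apart. A dye effect on a gene cannot be told apart from treatment.

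Neutrophils are the first leukocytes to enter inflamed tissue. They carry antimicrobial and tissue-degrading proteins in granules that are filled in a fixed order in the bone marrow, so that Ngp, Camp and Ltf are transcribed in precursors and only weakly in the mature blood cell. S100a8 and S100a9 encode the subunits of calprotectin, a metal-binding protein that fills the cytosol of neutrophils and monocytes and that signals as an alarmin. Marco is made by macrophages of the lung, spleen and lymph nodes, binds bacteria and inhaled mineral particles, and can be induced by inflammatory stimuli. The healthy retina holds microglia and few other leukocytes.

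The stretches before the start sites of Marco, S100a8 and S100a9 are shown because these 3 genes carried the high ratios. Each run is the 250 bases upstream of the start site in the RefSeq table of build GRCm38.p6, read 5′ to 3′ on the gene's own strand. Capitals mark matches, on either strand, to the motifs searched. They were TTNNGCAA for C/EBP, the regulators of granulocyte genes, GAGGAAG for PU.1, a regulator of myeloid cells, TGANTCA for AP-1, and a motif of NF-kappa-B.
Marco, chr1:120505025-120505274, minus strand: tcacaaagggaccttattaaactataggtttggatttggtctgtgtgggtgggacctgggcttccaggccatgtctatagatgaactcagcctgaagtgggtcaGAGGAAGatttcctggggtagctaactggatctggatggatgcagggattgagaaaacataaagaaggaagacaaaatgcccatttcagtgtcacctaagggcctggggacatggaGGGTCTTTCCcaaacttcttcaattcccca
S100a8, chr3:90668821-90669070, plus strand: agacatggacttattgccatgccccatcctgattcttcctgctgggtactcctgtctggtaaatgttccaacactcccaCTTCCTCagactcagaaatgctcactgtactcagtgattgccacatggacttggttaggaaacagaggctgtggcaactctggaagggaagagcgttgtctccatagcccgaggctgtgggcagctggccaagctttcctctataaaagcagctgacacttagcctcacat
S100a9, chr3:90695722-90695971, minus strand: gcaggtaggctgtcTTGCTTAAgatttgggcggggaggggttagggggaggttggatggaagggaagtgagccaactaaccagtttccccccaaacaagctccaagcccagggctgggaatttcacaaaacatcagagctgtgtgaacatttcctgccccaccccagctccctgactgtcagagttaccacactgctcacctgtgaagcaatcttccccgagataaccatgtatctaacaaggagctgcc
The Marco stretch holds a PU.1 match that begins 146 bases before the start site and an NF-kappa-B match that begins 30 bases before it. The S100a8 stretch holds a PU.1 match at 171 bases, in the reverse orientation, and the S100a9 stretch a C/EBP match at 236 bases. S100a8 and S100a9 are neighbours on chromosome 3, and no motif searched was in both windows.

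Over the 300-base windows, which run from 250 bases before to 50 bases after each start site, 8 of the 9 members had an entry in the table. A C/EBP match was in 5 of these 8 (S100a9, Ngp, Ltf, Mmp8 and Retnlg) and in 10.8% of all 32851 windows. PU.1 was matched in 3 of 8 (Marco, S100a8 and Mmp8) and in 13.6% of all, NF-kappa-B in 1 of 8 (Marco) and in 4.79% of all, and AP-1 in 0 of 8 and in 7.81% of all. Ngp had 2 C/EBP matches, at 138 and 11 bases before the start. The motifs share no bases with each other in these windows. A match is a run of letters and not a measured binding site.

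What the array reads of a gene is a 60-base probe, and its place is that of the array design, built on mm9. The S100a8 probe lies at chr3:90473778-90473837 on the plus strand, has 40% G and C, and is shown because the S100a8 ratio rests on it alone.
S100a8 probe: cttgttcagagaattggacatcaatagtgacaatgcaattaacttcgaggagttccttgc
The S100a9 probe lies at chr3:90496573-90496632 on the minus strand. For the Marco probe the design gives 20 of its 60 bases, at chr1:122371115-122371134 on the minus strand. The 2 Camp probes, at chr9:109749911-109749970 and chr9:109749901-109749950 on the minus strand, share a run of 40 bases and are not independent. The Ngp, Ltf and Mmp8 probes also lie on chromosome 9, the Mmp9 probe on chromosome 2 and the Retnlg probe on chromosome 16. The sources used here do not say which exon, or which side of the stop codon, a probe reads.

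Between 71.0% and 85.5% of the 43020 gene spots per array were well above background in at least 1 channel, and none was saturated. PTC replicates 1 and 2 were on slide 1, while PTC replicate 3 shared slide 2 with the 3 10PTC arrays. Retina was checked by its markers: all 18 genes listed for rod photoreceptors passed the filter on dim probes. All 15 skeletal muscle genes listed passed the filter too and were lower than PBS at both doses, with medians between -3.48 and -2.18 by array. PTC replicate 1 stood apart from the other arrays. Its median over 20 microglia and macrophage genes was 1.76, against 0.66 and 1.28 on the other PTC arrays and 0.95 to 1.17 at 10PTC, and its median over the rod genes was -0.26, against 0.07 to 0.27 on the other arrays.

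Marco, S100a8 and S100a9 were highest on PTC replicate 1, and no other array came near it for Marco. The remaining 6 members lay between -0.33 and 0.42 on all arrays. Marco's log2 ratio was 3.66, 0.40 and 0.26 in PTC replicates 1, 2 and 3, and 0.32, 0.34 and 0.18 in the 10PTC replicates. All 6 ratios lay above 0, 5 of them within 0.18 to 0.40, and the doses overlapped. The mean of PTC was 1.44 ± 1.92 and that of 10PTC 0.28 ± 0.09 (SD, n = 3 each). Without PTC replicate 1 the PTC mean was 0.33, close to that of the higher dose.

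**Figure D1:**
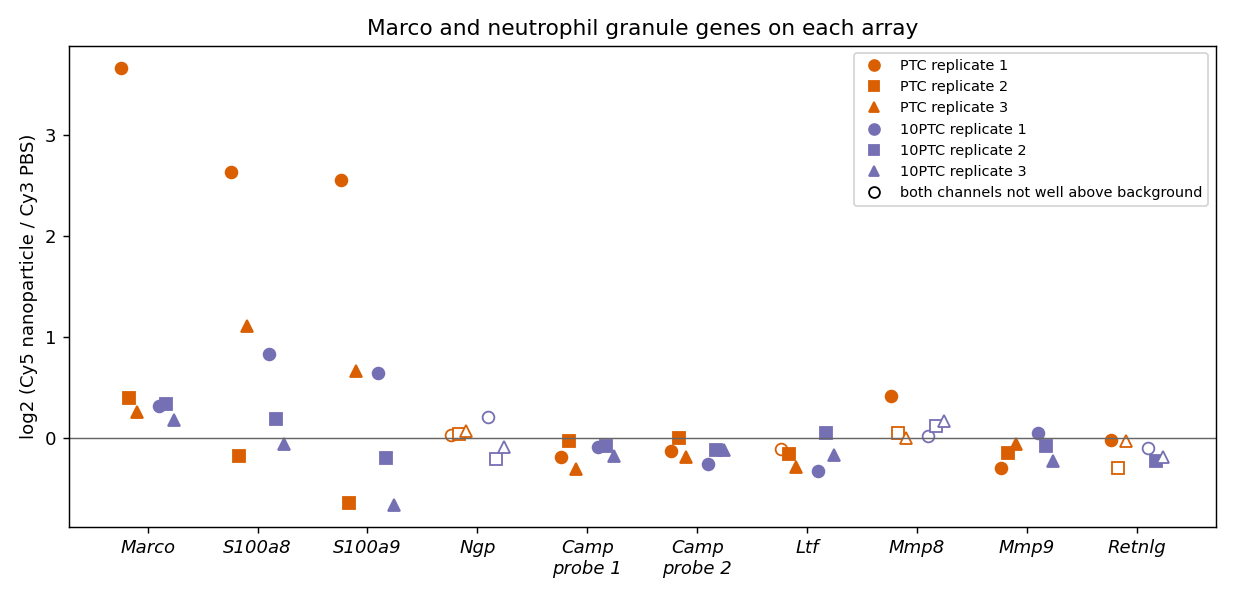
Log2 ratio of nanoparticle-treated (Cy5) over PBS (Cy3) retina for each of the 10 member probes, with a point for each array, PTC in orange and 10PTC in purple. The horizontal line is PBS, open symbols mark spots where neither channel stood well above background, and Camp probe 1 is the brighter of its 2 probes. Marco, S100a8 and S100a9 reach 3.66, 2.63 and 2.55 on PTC replicate 1, and the other genes stay within -0.33 to 0.42.

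The spot signals show which channel made the high ratio. On PTC replicate 1 the Marco spot had a mean signal of 1790 in Cy5 and 110 in Cy3, over local backgrounds of 48 and 29. On PTC replicate 2, on the same slide, it had 181 in Cy5 and 114 in Cy3. On slide 2 Marco had 567 in Cy5 and 346 in Cy3 on PTC replicate 3, and 571 to 718 in Cy5 and 339 to 375 in Cy3 on the 10PTC arrays. The treated channel of PTC replicate 1 was the highest of all 6, and the PBS channel of both slide 1 arrays was below that of the slide 2 arrays.

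The PBS signal of Marco therefore differed between the slides. After normalization within and between arrays it averaged 8.60 log2 units on slide 2 and 7.35 on slide 1, a difference of 1.25 log2 units or 2.38-fold, with an SD of 0.09 among the slide 2 arrays. Of 25727 probes measured in Cy3 on every array, 98.5% had a smaller difference between slides than Marco. The central 95% of probes lay between -0.46 and 1.03, with a median of -0.07. For S100a8 and S100a9 the same difference was -0.35 and -0.21, within that range. The sources used here do not say whether the slides carried the same PBS RNA, and its part in Marco's ratios was not tested.

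S100a8, which needs its partner S100a9 for most of its functions, had log2 ratios of 2.63, -0.18 and 1.11 in PTC replicates 1, 2 and 3, and of 0.83, 0.19 and -0.06 in the 10PTC replicates. Each dose held ratios on both sides of 0, and the doses overlapped. The means were 1.19 ± 1.41 at PTC and 0.32 ± 0.46 at 10PTC (SD, n = 3 each), and the PTC mean without replicate 1 was 0.46. The S100a8 spot was dim. Its Cy3 signal lay between 90.0 and 101 on all 6 arrays, and its Cy5 signal was 736, 85.6 and 268 on the PTC arrays and 258, 129 and 116 on the 10PTC arrays. Both channels stood well above background on every array.

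S100a9 had log2 ratios of 2.55, -0.64 and 0.66 in PTC replicates 1, 2 and 3, and of 0.64, -0.20 and -0.66 in the 10PTC replicates. Only 2 of 3 PTC arrays and 1 of 3 10PTC arrays were above PBS. The means were 0.86 ± 1.60 at PTC and -0.07 ± 0.66 at 10PTC (SD, n = 3 each), and 0.01 at PTC without replicate 1. Its Cy5 signal was 1920 on PTC replicate 1, against 174 to 698 on the other 5 arrays, while its Cy3 signal lay between 229 and 289 on all 6. For both calprotectin subunits the treated channel varied between the pools and the PBS channel was nearly constant.

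**Figure D2:**
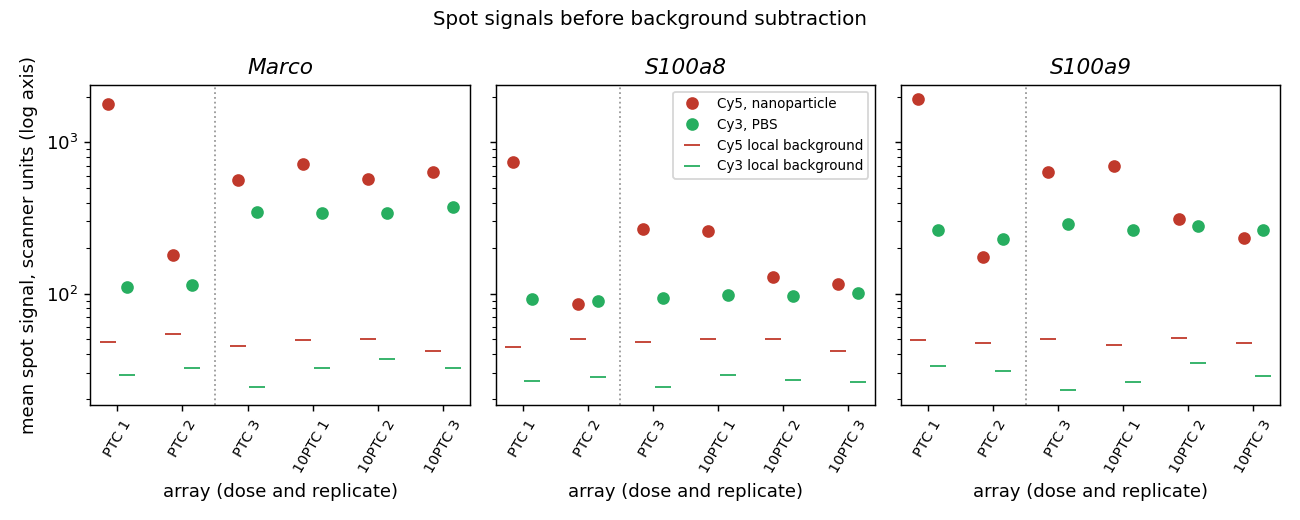
Mean spot signal of Marco, S100a8 and S100a9 on each array before background subtraction, on a log axis in scanner units, with treated retina (Cy5) in red left of PBS retina (Cy3) in green and the local backgrounds as dashes. The dotted line separates slide 1 (left) from slide 2. Marco's PBS signal is 110 and 114 on slide 1 and 339 to 375 on slide 2, while the PBS signals of S100a8 and S100a9 stay within 90.0 to 101 and 229 to 289.

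The 2 calprotectin subunits moved together from pool to pool. Over the 6 arrays their log2 ratios had a Pearson correlation of 0.996 and a Spearman correlation of 0.943, and the Pearson value without PTC replicate 1 was 0.982. Marco had a Pearson correlation of 0.871 with each of S100a8 and S100a9, which without PTC replicate 1 came to -0.158 and -0.0265. These values describe 6 points that share a control channel and, in part, a slide.

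PTC replicate 1 exceeded the mean of the other PTC arrays by 3.33 log2 units for Marco, 2.54 for S100a9 and 2.17 for S100a8. Over all 26129 genes this difference had a median of 0 and an SD of 0.25. For Camp, Ltf and Mmp9 it was -0.02, 0.11 and -0.20. The values of PTC replicate 1 chose the members, so these are a description. Over all 6 arrays Mmp9 had a Pearson correlation of -0.322 with S100a8 and -0.277 with S100a9. On the 5 arrays other than PTC replicate 1 the values were 0.761 and 0.868, so their sign depended on that array. Mmp9 itself stayed within -0.23 to 0.05 on those 5.

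Of the members stored in specific granules, Ngp was at background. Camp and Ltf were within 0.33 log2 units of PBS on every array after normexp. Ngp, which encodes neutrophilic granule protein, had ratios of 0.03, 0.04 and 0.07 at PTC and 0.21, -0.21 and -0.09 at 10PTC. Its spot stood well above background in neither channel on any array, with signals of 49.0 to 54.5 in Cy5 and 55.1 to 63.8 in Cy3, so that no level and no fold can be given. Camp, the gene of the antimicrobial peptide cathelicidin, had ratios of -0.19, -0.03 and -0.31 at PTC and -0.09, -0.08 and -0.18 at 10PTC with its brighter probe. The other Camp probe gave -0.13, 0.00 and -0.19 at PTC and -0.26, -0.12 and -0.12 at 10PTC. No Camp value was above 0, and the largest departure was -0.31.

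Ltf, which encodes the iron-binding protein lactoferrin, had ratios of -0.11, -0.16 and -0.29 at PTC and -0.33, 0.05 and -0.17 at 10PTC. The means were -0.19 ± 0.09 at PTC and -0.15 ± 0.19 at 10PTC (SD, n = 3 each). Its spot was close to background. The scanner software's own log2 ratios were -0.17, -0.86 and -0.65 at PTC and -0.95, -0.07 and -0.62 at 10PTC. How near Ltf was to PBS therefore depended on the processing. Cy5 stood well above background on 1 of 3 PTC arrays and all 3 10PTC arrays, with signals of 72.0 to 128, and Cy3 on 2 PTC arrays and all 3 10PTC arrays.

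The collagenase gene Mmp8 of neutrophil granules was measured in the treated channel on PTC replicate 1 alone, where its signal was 85.8 over a background of 52.5. Its PBS signal stood well above background on no array. On that array the treated signal was at least 1.18-fold the PBS signal, and no fold is given for the PTC group, since neither channel was measured on its other arrays. The normexp ratio of PTC replicate 1 was 0.42, while the scanner software's own log2 ratio was 2.69. At 10PTC neither channel was measured, so no fold is given.

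Mmp9, the gelatinase of late granules that macrophages and glia also make, was printed 10 times on each array. Its mean ratios were -0.30, -0.15 and -0.06 at PTC and 0.05, -0.08 and -0.23 at 10PTC, and the SD among the 10 spots of an array lay between 0.04 and 0.10. The 3 PTC ratios were all below 0, and the doses overlapped. Both channels stood well above background on every array, with Cy5 signals of 162 to 316 and Cy3 signals of 171 to 199. PTC replicate 1, the highest array for Marco, was the lowest for Mmp9.

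Retnlg, a secreted protein gene of the resistin family made by mouse myeloid cells, had ratios of -0.02, -0.30 and -0.03 at PTC and -0.10, -0.23 and -0.19 at 10PTC. It stood well above background in Cy5 on PTC replicate 1 and 10PTC replicate 2, and in Cy3 on the second of these alone. On the other 4 arrays neither channel was measured, so no order is read from its ratios.

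The limma fit covered 26129 genes, of which 33.1% passed an adjusted p of 0.05 at PTC (16.9% higher and 16.3% lower than PBS), 27.7% at 10PTC (14.4% higher and 13.3% lower) and 0% between 10PTC and PTC. With median centring in place of loess the split was 8204 higher of 12420 called at PTC and 9645 of 14633 at 10PTC, against 4404 of 8656 and 3763 of 7232 here. Without PTC replicate 3 the PTC count was 5005, and without 10PTC replicate 1 or 3 the 10PTC count was 1359 or 1568. The p-values measure the spread of the ratios between arrays, in which treated pool, PBS RNA and slide are not separated. Of the members, 6 of 9 passed the filter on dim probes: Marco, S100a8, S100a9, Camp, Ltf and Mmp9. None of these 6 passed in limma at PTC, at 10PTC or between the doses. At an unadjusted p under 0.05 in limma there were 2 higher and 3 lower at PTC, 0 at 10PTC and 0 between the doses. Of all 26129 genes 11790 passed that threshold at PTC, 10901 at 10PTC and 2130 between the doses. Nothing is read from these counts, because the same ratios chose the members.

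Leaving out PTC replicate 1 or 2 changed these calls, which is given as a description. Without PTC replicate 3, or without any single 10PTC replicate, no member passed in any comparison. PTC replicate 1 was singled out when the members were chosen, so nothing is read from the fit without it. Without PTC replicate 1 Marco's mean was 0.33 at PTC and 0.28 at 10PTC, and the limma adjusted p was 0.0128 and 0.00699, against 0.0935 and 0.745 with it. Without PTC replicate 2, S100a8 and S100a9 averaged 1.87 and 1.61 at PTC, with limma adjusted p-values of 0.0143 and 0.0447, against 0.0782 and 0.241 with it, and Camp averaged -0.25 (0.0204 against 0.0513). PTC replicate 2 held the lowest PTC ratios of S100a8 and S100a9, at -0.18 and -0.64. Leaving it out therefore raised their means, and nothing is read from that fit either. These fits use 5 arrays, and the spread they take is shared by both doses.

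Set against each other, the higher dose was below the lower for the 3 genes that varied, within the spread of the arrays. Marco was 1.16 log2 units lower at 10PTC, with means of 0.28 at 10PTC and 1.44 at PTC. S100a8 differed by -0.86 (0.32 at 10PTC and 1.19 at PTC) and S100a9 by -0.93 (-0.07 at 10PTC and 0.86 at PTC). The groups overlapped for all 9 members, and the limma adjusted p-values of the 3 genes were 0.726, 0.734 and 0.751, printed as description. Without PTC replicate 1 the differences were -0.05 for Marco, -0.14 for S100a8 and -0.08 for S100a9. Within slide 2, where 3 10PTC arrays stand beside PTC replicate 3 alone, Marco differed by 0.02, S100a8 by -0.78 and S100a9 by -0.74.

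Of the other genes that neutrophils use, 53 were listed and 43 tested, and 3 of the 53 are also in another list. At PTC 18 were higher and 2 lower than PBS, with a median of 0.13, and at 10PTC 7 were higher and 3 lower, with a median of 0.03, while the median over all genes was 0 at both doses. Of all genes 16.9% were higher and 16.3% lower at PTC, and 14.4% higher and 13.3% lower at 10PTC. The 7 higher at 10PTC were near that share, and nothing is read from them. The lists were drawn up with earlier results of these arrays known. Single arrays moved these counts. The 18 at PTC came to 6 without PTC replicate 3, 11 without 10PTC replicate 1 or 10PTC replicate 3, and 14 without PTC replicate 1. The 7 at 10PTC came to 1, 4 and 2 without 10PTC replicate 1, 2 or 3, and to 15 and 12 without PTC replicate 1 or 2. With the scanner software's processed signals the counts were 9 at PTC and 3 at 10PTC. In pooled tissue more cells of a type and more RNA per cell cannot be told apart.

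Of 11 other genes of specific and gelatinase granules tested, 5 were higher and 1 lower at PTC, and 2 higher and 1 lower at 10PTC. The shares of all genes were 16.9% higher and 16.3% lower at PTC, and 14.4% and 13.3% at 10PTC. Lcn2, which encodes an iron-scavenging protein that reactive glia also make, rose by 1.69 ± 0.97 at PTC and 1.96 ± 0.48 at 10PTC (SD, n = 3 each, limma adjusted p = 0.00870 and 0.00700). The NADPH oxidase subunit gene Cyba rose by 0.93 at PTC (limma adjusted p = 0.0282), and the integrin subunit gene Itgam by 0.33 at PTC and 0.28 at 10PTC. Hp, the gene of haptoglobin, fell to -1.69 ± 0.32 at PTC and -1.47 ± 0.11 at 10PTC. Falls were not particular to neutrophil lists. Of 10 fat genes tested 6 were lower and 0 higher at each dose, and all 15 skeletal muscle genes were lower. The cause of these falls was not tested. Olfm4, Cd177 and Chil3, which mark subsets or stages of neutrophils or their precursors, had means of -0.09, -0.08 and 0.25 at PTC and did not pass.

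Of 9 genes of azurophil granules tested, which are made first in the bone marrow, 2 were higher at PTC and 2 at 10PTC, and none was lower. Of all genes 16.9% were higher at PTC and 14.4% at 10PTC. Ctsc, the protease that activates granule serine proteases, rose by 0.72 at PTC and 0.66 at 10PTC (limma adjusted p = 0.0182 and 0.0281), and Srgn, a granule proteoglycan of many leukocytes, by 0.73 at PTC (0.0430). Mpo, the gene of myeloperoxidase, was at 0.13 ± 0.05 at PTC and rose by 0.16 ± 0.04 at 10PTC (SD, n = 3 each, limma adjusted p = 0.0539 and 0.0329). Elane and Prtn3, the genes of neutrophil elastase and proteinase 3, had means of -0.07 and -0.06 at PTC and -0.02 and -0.02 at 10PTC.

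Among 23 other neutrophil surface and cytosol genes tested, 11 were higher and 1 lower at PTC, and 3 higher and 2 lower at 10PTC. Among all genes 16.9% were higher and 16.3% lower at PTC, and 14.4% and 13.3% at 10PTC. The Fc receptor gene Fcgr3, also of macrophages, rose by 1.06 ± 0.52 at PTC and 0.84 ± 0.29 at 10PTC (SD, n = 3 each, limma adjusted p = 0.00591 and 0.0159). Trem1, an amplifying receptor of myeloid cells, rose by 0.25 at PTC and 0.21 at 10PTC, and Csf3r, the receptor for the growth factor of granulocytes, by 0.20 and 0.40. Pi16, a peptidase inhibitor gene also of connective tissue, fell to -3.08 ± 0.76 at PTC and -2.58 ± 0.93 at 10PTC. Clec4d, a lectin receptor of neutrophils and macrophages, had ratios of 3.42, 0.49 and 1.61 at PTC and 1.09, 1.59 and 1.14 at 10PTC, and passed at PTC alone (1.84 ± 1.48, limma adjusted p = 0.0198, against 0.0738 at 10PTC). No gene passed the test between the doses.

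Several genes used to mark neutrophils were at background. Cxcr2, Trem3, Clec4e, Slfn4, Clec12a and Mmp25 stood well above background in neither channel on any array. Fcnb did so in Cy5 on 0 arrays and in Cy3 on 2, and Fpr2 in Cy5 on 2 and in Cy3 on 0. Ly6g, the surface antigen used to count mouse neutrophils, was measured on all 6 arrays, with ratios of -0.02, -0.21 and -0.28 at PTC and -0.27, 0.19 and -0.28 at 10PTC. Its means were -0.17 at PTC and -0.12 at 10PTC, and it passed at neither dose (limma adjusted p = 0.214 and 0.377). By array, the median over the 43 genes was 0.18, 0.13 and 0.05 at PTC and 0.08, 0.15 and 0.04 at 10PTC, with PTC replicate 1 the highest. Single genes among them were higher on that array, with Clec4d at 3.42, Adam8 at 1.61 and Srgn at 1.55.

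**Figure D3:**
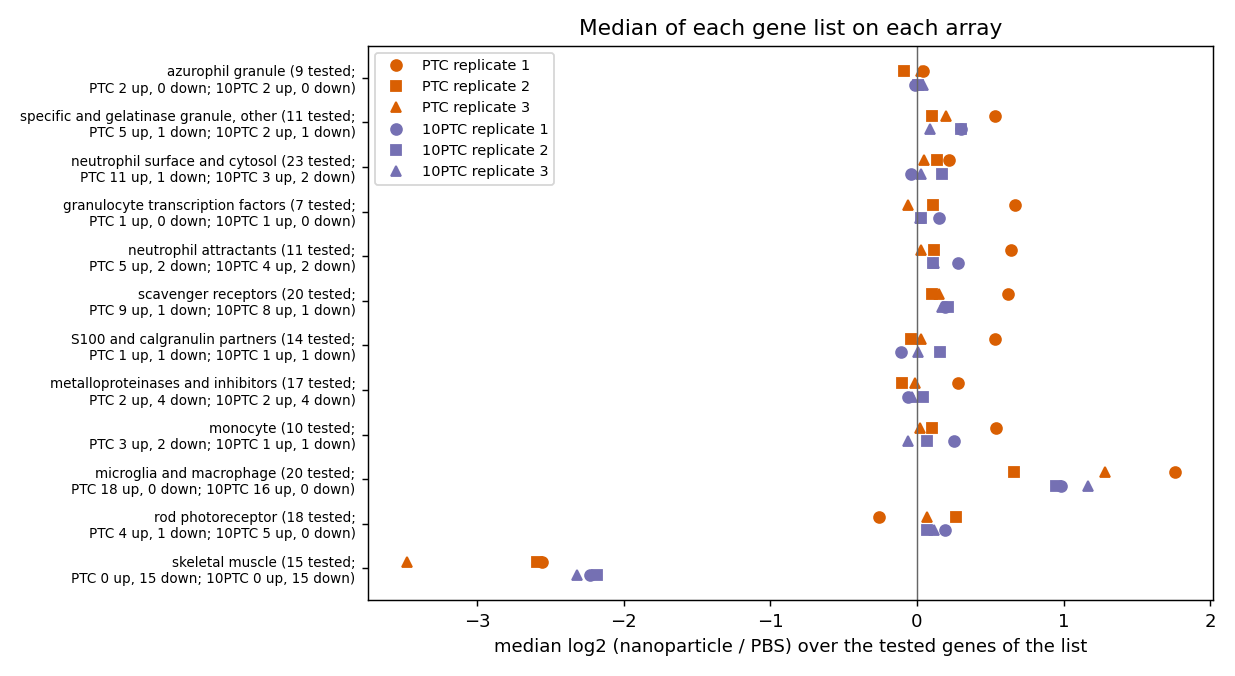
Median log2 ratio over the tested genes of each list, with a point for each array, PTC in orange above 10PTC in purple, and the genes higher or lower than PBS (limma adjusted p under 0.05) counted at the left. The members are left out of these lists, and 0 is PBS. The microglia and macrophage list lies at 0.66 to 1.76 on all arrays, while the medians of the 3 neutrophil lists lie between -0.09 and 0.53.

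The signals that call neutrophils were partly measured. Of 16 genes of attractants and their receptors listed, 11 were tested, with 5 higher and 2 lower at PTC and 4 higher and 2 lower at 10PTC. Over all genes 16.9% were higher and 16.3% lower at PTC, and 14.4% and 13.3% at 10PTC. The chemokine gene Ccl4 rose by 0.56 at PTC and 0.73 at 10PTC (limma adjusted p = 0.00910 and 0.00514), and Cxcl5, which acts through the neutrophil receptor Cxcr2, by 0.57 and 0.54 (0.0105 and 0.0165). Ccl3 was measured in treated retina on all arrays and in PBS on no PTC array, where treated retina had at least 1.70-fold the PBS signal (limma adjusted p = 0.00367). Ppbp, a chemokine gene of platelets, fell to -0.88 at PTC and -0.97 at 10PTC. Cxcl2, Cxcl3, Il6 and Il1a, and the granulocyte growth factors Csf2 and Csf3, stood well above background in neither channel, and Cxcl1 in Cy5 on 1 array and in Cy3 on none.

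Of 11 listed regulators of granulocyte genes, which are transcription factors and the growth factors Csf2 and Csf3, 7 were tested and 1 rose at each dose. Among all genes 16.9% were higher at PTC and 14.4% at 10PTC. Cebpd, also induced in reactive glia, rose by 2.03 ± 0.76 at PTC and 2.63 ± 0.24 at 10PTC (SD, n = 3 each, limma adjusted p = 0.00190 and 0.00135). Cebpa, which commits progenitors to the myeloid line, was 0.78, 0.12 and 0.17 at PTC and 0.20 to 0.26 at 10PTC, and passed at neither. Cebpe and Gfi1, which act in granulocyte precursors, stood well above background in Cy5 on 2 arrays each and in Cy3 on none.

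Receptors related to Marco in ligand binding were compared with it. Of 20 scavenger receptor genes tested besides Marco, 9 were higher and 1 lower at PTC, and 8 higher and 1 lower at 10PTC, with medians of 0.23 and 0.19. The shares of all genes were 16.9% higher and 16.3% lower at PTC, and 14.4% and 13.3% at 10PTC. Clec7a, a receptor for fungal glucans, rose by 2.07 ± 0.89 at PTC and 1.97 ± 0.17 at 10PTC (SD, n = 3 each, limma adjusted p = 0.00262 and 0.00403), and Mertk, a receptor for dying cells, by 0.54 and 0.45. Cd5l, secreted by macrophages, was measured in PBS on no array and was at least 1.89-fold higher at PTC and at least 1.67-fold higher at 10PTC (limma adjusted p = 0.00135 and 0.00434). Msr1, of the same receptor class as Marco, was measured in PBS on no array and in treated retina on 2 PTC arrays and 1 10PTC array. Its normexp ratio was 1.31 on PTC replicate 1 and 0.01 to 0.17 on the other arrays. Averaged over the PTC arrays, treated retina had at least 1.36-fold the PBS signal. This bound rested on PTC replicate 1 and does not describe each pool.

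Of 14 partners and relatives of calprotectin tested, 1 was higher and 1 lower at each dose, where 33.1% of all genes passed in either direction at PTC and 27.7% at 10PTC. S100a16 rose by 0.54 at PTC and 0.57 at 10PTC (limma adjusted p = 0.00924 and 0.0105), and S100a5 fell to -0.29 and -0.27 (0.00422 and 0.00684). S100a4, a calcium-binding protein of motile cells, was 0.96, -0.18 and 0.89 at PTC and 0.18, 0.13 and 0.68 at 10PTC. Tlr4, a receptor through which calprotectin signals, was 0.44, -0.06 and 0.16 at PTC and 0.03 to 0.08 at 10PTC. The list's median was 0.53 on PTC replicate 1 and -0.11 to 0.16 on the other arrays, so that array was high for this family too.

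Of 17 metalloproteinases and inhibitors tested besides the members, 2 were higher and 4 lower at each dose. Over all genes 33.1% passed in either direction at PTC and 27.7% at 10PTC. The inhibitor gene Timp1, whose product blocks Mmp9, rose by 2.20 ± 1.16 at PTC and 2.1 ± 0.38 at 10PTC (SD, n = 3 each, limma adjusted p = 0.00539 and 0.00828). Mmp2, the gelatinase of connective tissue, fell to -0.24 and -0.28, and Mmp17 to -0.49 and -0.26. Both measured relatives of Retnlg were lower than PBS. Retnla fell to -1.74 ± 0.67 at PTC and -1.44 ± 0.87 at 10PTC, and Retn, the hormone gene of fat, to -0.40 ± 0.22 and -0.36 ± 0.04 (SD, n = 3 each).

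Other leukocytes and blood were also followed with marker lists. For these lists the shares of all genes were 16.9% higher and 16.3% lower at PTC, and 14.4% and 13.3% at 10PTC. The microglia and macrophage list had 18 of 20 genes higher at PTC and 16 at 10PTC and none lower, with medians of 1.28 and 1.07. Ctss, a cathepsin of microglia, rose by 1.94 at PTC and 1.68 at 10PTC. Of 10 monocyte genes tested, 3 were higher and 2 lower at PTC, and 1 higher and 1 lower at 10PTC. Ccr2, the receptor of inflammatory monocytes, was 0.64, 0.05 and 0.48 at PTC and 0.57, -0.06 and -0.14 at 10PTC. Of 12 T, B and NK cell genes 1 was higher and 1 lower at PTC, and 0 higher and 2 lower at 10PTC. Of 7 red blood cell genes 6 were lower and 1 higher at PTC, and 3 lower and 1 higher at 10PTC. Of 8 platelet genes 4 were lower and 0 higher at each dose. The part of each cell type in the ratios of the members was not tested.

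The genes whose pattern over the 6 arrays was most like that of Marco were sought among 240 measured in Cy5 on every array with an SD of at least 0.5. They were Adam8 (Pearson correlation 0.982), Tgtp2 (0.977), Tgfbi (0.973), Oas1f (0.973) and Abcc3 (0.973). All 5 were highest on PTC replicate 1, at 1.61 to 2.28, below Marco's 3.66. Without that array their correlations were -0.539, -0.543, 0.843, -0.726 and -0.322, so the likeness rests on PTC replicate 1 for all but Tgfbi.

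Among the 5 most like S100a8 were Pirb (0.984), Tm4sf1 (0.960), Tagln (0.959) and Pf4 (0.959). Pirb, an inhibitory receptor of myeloid and B cells, was 1.87, 0.41 and 0.92 at PTC and 0.93, 0.62 and 0.63 at 10PTC, above PBS on all arrays. Pf4, a platelet chemokine gene also made by macrophages, was 2.18, -1.03 and -0.16 at PTC and -0.38, -0.40 and -0.75 at 10PTC, above PBS on PTC replicate 1 alone. Without PTC replicate 1 the correlations of these 4 were 0.943, 0.823, 0.810 and 0.888. The genes were picked for their correlation over these arrays, which is a description only.

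**Figure D4:**
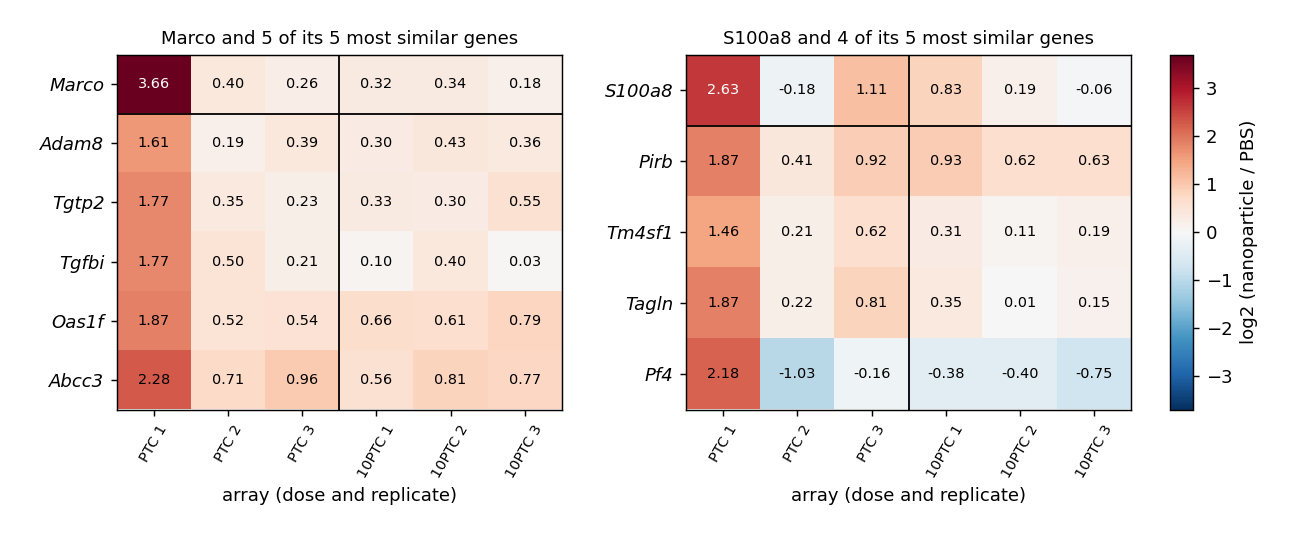
Log2 ratio on each array for Marco (left) and S100a8 (right) above genes whose ratios correlated most with theirs over the 6 arrays (5 for Marco and 4 for S100a8); columns are arrays, with a line between PTC and 10PTC, and red is above PBS. The column of PTC replicate 1 is the highest in every row. On the other arrays the genes beside S100a8 have their next highest value on PTC replicate 3 or 10PTC replicate 1.

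The means of Marco and the calprotectin genes depended on the processing in size. Those at PTC stayed above 0, for S100a9 by as little as 0.01. On PTC replicate 2 alone, S100a8 and S100a9 were below PBS. Over 23 alternatives the PTC mean lay between 0.26 and 2.04 for Marco, 0.46 and 2.01 for S100a8 and 0.01 and 1.61 for S100a9. The mean of 10PTC lay between 0.25 and 0.43 for Marco, 0.07 and 0.75 for S100a8 and -0.43 and 0.22 for S100a9, over 22 alternatives. For PTC replicate 1, the scanner software gave log2 ratios of 4.89 for Marco, 4.12 for S100a8 and 2.83 for S100a9, against 3.66, 2.63 and 2.55 after normexp with an offset of 50, which pulls the ratios of dim spots towards 0.

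**Figure D5:**
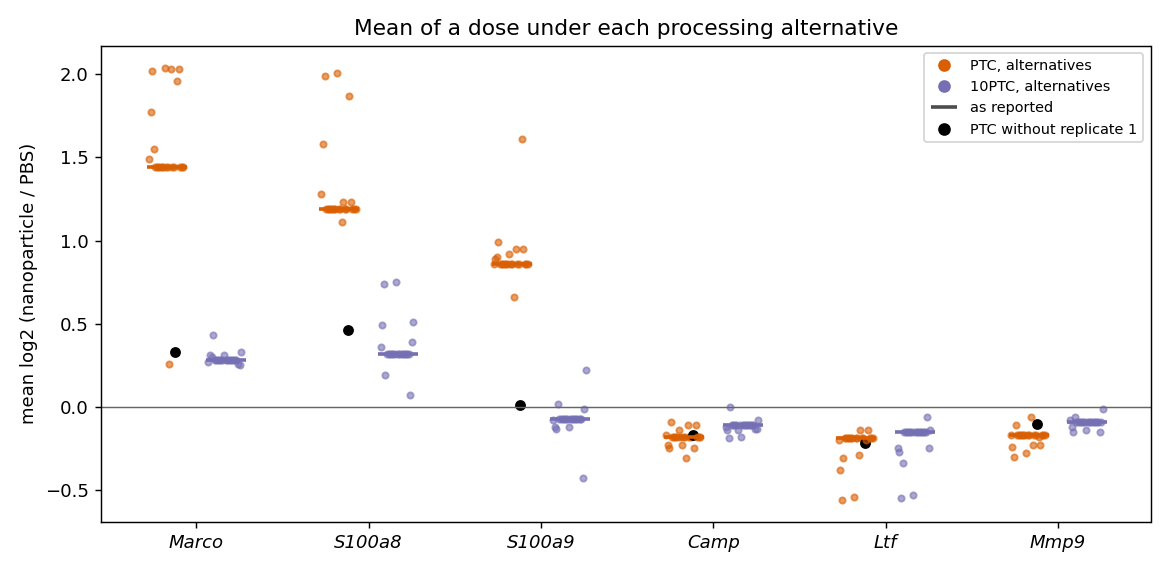
Mean log2 ratio of a dose for the 6 members that passed the filter on dim probes, with a dot for each processing alternative, PTC in orange and 10PTC in purple, and a dash for the value as reported. Black dots are the PTC mean without replicate 1. They lie at 0.33 for Marco, 0.46 for S100a8 and 0.01 for S100a9, below the reported 1.44, 1.19 and 0.86.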

How the data were processed

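RNA of pooled retinas was hybridised to 6 Agilent 2-colour arrays, per the labels. The deposited scanner files hold spot intensities (mean signal and local background per channel) and the software's log10 ratio of Cy5 over Cy3. Agilent Feature Extraction 10.7.3.1 wrote these intensities, per the file headers, while the submitters' processing notes give 9.3.2.1. The authors' deposited table holds log2 ratios, which followed the scanner's log10 ratio (r of at least 0.983) and served as an alternative.

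Intensities were background-corrected with normexp (offset 50) and loess-normalized within arrays, with control spots at weight 0 and outlier spots left out. Spots of a probe were averaged, and a probe was kept if either channel stood well above background on 3 or more of the 6 arrays, with the brightest probe per gene. This left 26129 genes, and 6939 dim probes were dropped. limma 3.58.1 in R 4.3.3 gave PTC against PBS, 10PTC against PBS and 10PTC against PTC, with Benjamini-Hochberg adjusted p-values over all genes and a threshold of 0.05. A probe not well above background in PBS on every array of a dose is given as a bound, the treated mean over the higher of the lowest measured signal and its own. Replicate numbers did not pair the arrays. The number of arrays limits the precision.

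The members and gene lists were chosen with earlier results of these data known. Named genes are all members, the up to 4 list genes of smallest p at each dose among those called, defining markers near background and the 5 genes most like Marco or S100a8. Of these, 1 is not reported here. Other genes named were picked for their function after their values were seen. Alternatives covered background correction, normalization, filter, probe choice, slide, replicate block, array weights, moderation and each array left out.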

Additional observations from a re-analysis of the deposited data

How the results depend on the processing

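Over 23 alternatives (22 where 10PTC is involved, since slide 1 held PTC alone) 558 of 603 recomputed member values moved by less than 1 SD. That SD is the member's own between the arrays of a dose and was 1.92 for Marco at PTC. Marco's PTC means of 0.26 to 2.04 all fell within it, so the count does not measure stability. No member was called as reported, and some means changed sign, as for S100a9 at 10PTC (-0.43 to 0.22) and for Marco between 10PTC and PTC (-1.75 to 0.02). The genes called at PTC, 8656 as reported, were 1714 with slide 2 alone, 288 with slide 1 alone, 14719 with array weights and 5005 to 7862 with an array left out. Those at 10PTC, 7232 as reported, were 4442 with the scanner's processed signals, 14633 with median centring, 4579 with the authors' deposited table, 1008 with slide as a block, 14033 with array weights and 1359 to 9120 with an array left out. Between the doses, 0 as reported (2130 at an unadjusted p under 0.05 in limma), array weights gave 365, trended and robust moderation gave 2, and leaving out an array gave 0 to 1. Neutrophil genes higher at PTC, 18 as reported, were 9 with processed signals, 10 with the authors' deposited table, 7 with slide as a block, 1 with slide 1 alone and 6 to 17 with an array left out. Those higher at 10PTC, 7 as reported, were 3 with processed signals, 11 with median centring, 3 with the authors' deposited table, 2 with slide as a block, 17 with slide 2 alone, 15 with array weights and 1 to 15 with an array left out. The cause was not tested. Members passed in 11 of 23 alternatives at PTC and 4 of 22 at 10PTC. Nothing is read from members passing in an alternative, because the same ratios chose them. With array weights 14719 of all 26129 genes passed at PTC and 14033 at 10PTC. In that fit S100a8 averaged 1.10 at PTC (limma adjusted p = 0.00478). Camp and Ltf were lower there at both doses and Mmp9 at 10PTC (-0.15, limma adjusted p = 0.0469). Camp was lower at PTC in 8 alternatives, and Ltf with median centring at both doses. With slide 2 alone Marco averaged 0.28 at 10PTC. Same-numbered arrays had correlated deviations of -0.272, 0.146 and 0.198, so the numbers were not taken as pairs; the replicate block gave 6451 calls at PTC, 4824 at 10PTC and 0 between the doses, and S100a8 passed at PTC (1.19, limma adjusted p = 0.0398). Median centring moved the median of all genes to 0.048 at PTC and 0.076 at 10PTC. Signals near background limit Ngp, Ltf, Mmp8 and Retnlg.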

Other observations

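Some listed genes of neutrophils and monocytes that did not follow S100a8 split the arrays in another way. Stfa1, a cystatin gene of neutrophils and skin with near-identical copies that make its probe uncertain, had log2 ratios of 0.71, 0.86 and -2.88 at PTC and -2.94, 0.17 and -2.37 at 10PTC. Asprv1, a protease gene of skin and neutrophils, had 0.61, 1.77 and -2.0 at PTC and -2.09, 0.26 and -1.77 at 10PTC. Plac8 had 0.62, 0.81 and -1.14 at PTC and -1.43, -0.21 and -1.32 at 10PTC, and Pglyrp1, a peptidoglycan-binding protein of granules, -0.80, -0.79 and -1.84 at PTC and -1.77, 0.30 and -1.48 at 10PTC. All 4 genes were lowest on PTC replicate 3, 10PTC replicate 1 and 10PTC replicate 3. These genes were chosen after their values were seen.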
